A study of Rattus norvegicus with 2 samples.

Results

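Aminoacyl-tRNA synthetases were examined in RMT-1 clone E4, a rat mammary tumour cell line that is a single clone. The genes were chosen by name, as rat genes whose symbol is a capital letter followed by ars with an optional 1 or 2, together with Eprs1, Farsa and Farsb. Of 37 such genes in the RefSeq table, 33 had a probe on the arrays, through 42 of the 30367 gene probes. Gars1, Iars2, Lars2 and Mars2 matched no probe through the accessions used and are not analysed here. The study compared cells transfected with an siRNA against Pla2g4c, which encodes a cytosolic phospholipase A2, with cells transfected with a negative control siRNA. Total RNA of each was labelled with Cy3 and hybridised to 1 one-colour Agilent array, and the labels give no other treatment. Neither group was replicated, so the differences below are descriptions of these arrays and no test was made.

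These enzymes join each amino acid to its tRNA, the step that sets which amino acid a codon is read as. Most amino acids have one enzyme in the cytosol and another, encoded by a separate nuclear gene, in the mitochondrion, and Gars1 and Kars1 each serve both compartments. In animal cells a set of the cytosolic enzymes is bound, with scaffold proteins, in a multi-synthetase complex. The enzymes fall into structural class I and class II, which have unrelated catalytic folds. Many of the cytosolic genes are known targets of ATF4, the transcription factor of the amino acid and integrated stress responses.

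A level is the log2 processed signal of a probe relative to the 75th percentile of its array, and a difference is the level with Pla2g4c siRNA minus the level with control siRNA. The ± beside a difference is the scanner software's error, a technical error combined over both arrays. It was close to 0.20 in nearly all synthetases, for Sars1 on 10 spots per array as for Mars1 on 1. It therefore acts much like a fixed margin and does not measure the spread between spots. The 75th percentile was a processed signal of 1105 with Pla2g4c siRNA and of 852 with control siRNA, and the share of gene spots well above background was 63.1% and 61.9% in that order. No probe matched Pla2g4c, so the knockdown was not checked. Of 6 epithelial markers 5 were measured, at levels of -4.17 to 7.46 with Pla2g4c siRNA and -5.03 to 8.43 with control siRNA, and Krt18 was well above background on neither array. They differed between the arrays in both directions, with Epcam at 1.03 and Krt8 at 0.86, against Krt5 at -1.72, Krt14 at -0.97 and Cdh1 at -0.63, and the part of this in the synthetase differences was not tested. Of the markers of other cells, 2 of 5 immune, 1 of 3 endothelial and 2 of 4 fibroblast genes were measured, at levels of -1.74 or less with Pla2g4c siRNA and -1.87 or less with control siRNA, while Ptprc, Pecam1 and Dcn were well above background on neither array. In bulk RNA such as this, fewer cells of a type and less RNA per cell cannot be told apart.

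All 33 synthetase genes with a probe were measured, meaning well above background on both arrays, by 40 probes. A further 2 probes, both of Ears2, were not measured. The synthetases differed little as a family. Only Vars2 was at least 1.5-fold higher with Pla2g4c siRNA, where 8.69% of the 9026 measured named genes were, and only Sars1 was at least 1.5-fold lower, against 10.3% of those genes. No synthetase reached 2-fold in either direction, against 2.91% of genes 2-fold higher and 3.05% 2-fold lower. The median difference was 0.13 over the synthetases and -0.01 over all measured named genes, with 20 of 33 synthetases above 0, against 49.0% of all genes. The quartiles of the synthetases were -0.15 and 0.24, and those of all genes -0.27 and 0.25. The difference was larger than its software error in 19 synthetases and larger than 2 such errors in 8, against 57.1% and 29.4% of all genes. As the error hardly varied between genes, these are close to counts past a fixed cutoff.

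**Figure D1:**
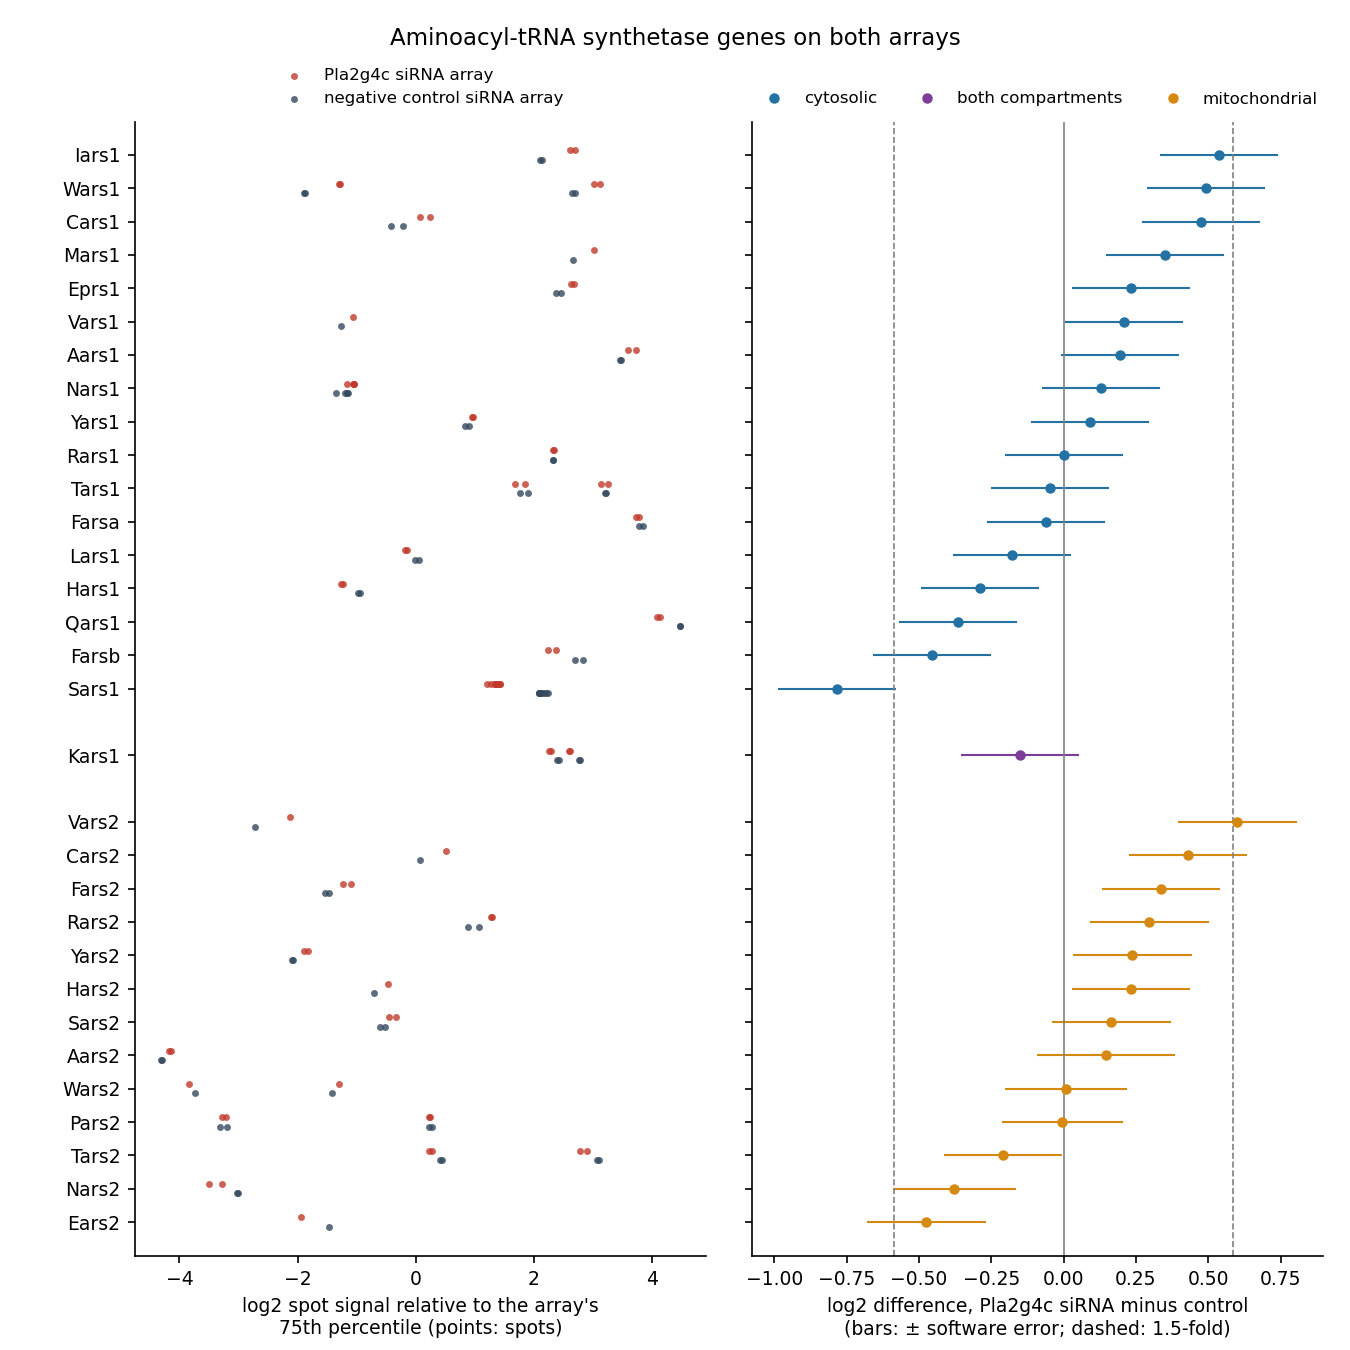
Levels of the measured spots of 31 synthetase genes on the Pla2g4c siRNA and negative control siRNA arrays (left, log2 relative to the 75th percentile) and the difference between the arrays with its software error (right, dashed lines at 1.5-fold). Sars1, with 10 spots on each array, lies furthest to the left at -0.78 and Vars2 furthest to the right at 0.60.

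Spots of the same probe gave a view of the precision within the arrays. Of 32 synthetase probes measured by several spots, 15 had every spot on the Pla2g4c siRNA array above every spot on the control array, where 38.8% of all such named probes did. In 11 every spot was below, against 39.2%, and in 6 the spots overlapped. Without regard to direction the spots of 78.0% of all such probes did not overlap. These shares are near those of all probes. Spots of an array carry the same RNA, so this separation says nothing of the spread between cultures.

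Sars1, which charges serine tRNA and also the selenocysteine tRNA, had the lowest difference. Its 10 spots lay between levels of 1.21 and 1.43 on the Pla2g4c siRNA array, against 2.08 to 2.24 on the control array, and the spots of the arrays did not overlap. The mean levels were 1.35 with Pla2g4c siRNA and 2.13 with control siRNA, a difference of -0.78 ± 0.20, or 1.72-fold lower. Of all measured named genes, 5.57% had a lower difference.

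Further cytosolic enzymes were lower by less than 1.5-fold. Farsb, the beta subunit of the phenylalanine enzyme, had levels of 2.31 with Pla2g4c siRNA and 2.76 with control siRNA, a difference of -0.45 ± 0.20. Farsa, its alpha subunit, had levels of 3.75 and 3.82 on those arrays and differed by -0.06 ± 0.20. The enzyme is built of both subunits, and the subunit probes differed between the arrays by unlike amounts. Hars1, the histidine enzyme, had levels of -1.25 and -0.96 in the same order and differed by -0.29 ± 0.20. In Sars1, Farsb and Hars1 every spot with Pla2g4c siRNA lay below every spot with control siRNA.

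On the other side stood Wars1, Cars1 and Iars1, each between 1.39-fold and 1.45-fold higher. Wars1 charges tryptophan tRNA and is known as an interferon-inducible gene in human cells. Its first probe had levels of 3.07 with Pla2g4c siRNA and 2.68 with control siRNA, and its second -1.29 and -1.88. The probes differed by 0.40 and 0.59, both in the same direction, and their mean was 0.49 ± 0.20. Cars1, the cysteine enzyme, had levels of 0.16 and -0.32 and differed by 0.48 ± 0.20. No spots of these probes overlapped between the arrays.

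The other cytosolic enzymes outside the multi-synthetase complex were within 0.25 of 0. Vars1, the valine enzyme, differed by 0.21 on 1 spot per array, Aars1, the alanine enzyme, by 0.20 and Nars1, the asparagine enzyme, by 0.13 over a pair of probes. Yars1, the tyrosine enzyme, differed by 0.09 and Tars1, the threonine enzyme, by -0.05. None of these stood clearly beyond its software error of 0.20.

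The 8 enzymes of the multi-synthetase complex went both ways, with 4 above 0 and 4 below and a median of -0.04, which was 0.01 with quantile and 0.04 with cyclic loess normalization. None reached 1.5-fold. Iars1, the isoleucine enzyme, was the highest, with levels of 2.66 with Pla2g4c siRNA and 2.12 with control siRNA and a difference of 0.54 ± 0.20. Mars1, the methionine enzyme, followed with levels of 3.02 and 2.67 on 1 spot per array and a difference of 0.35 ± 0.20. Eprs1, a fused enzyme for glutamate and proline, differed by 0.23 ± 0.20.

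At the low end of the complex was Qars1, the glutamine enzyme, with levels of 4.11 with Pla2g4c siRNA and 4.48 with control siRNA and a difference of -0.37 ± 0.20, which was -0.18 with quantile and -0.16 with cyclic loess normalization. Under cyclic loess Lars1 was lower than Qars1, at -0.21. Lars1, the leucine enzyme, differed by -0.18 and Kars1, the lysine enzyme of both compartments, by -0.16 and -0.14 in its probes. Rars1, the arginine enzyme, had a level of 2.33 on both arrays, and its difference of 0.0003 was counted as above 0. The enzymes of the complex spanned -0.37 to 0.54. The scaffold genes Aimp1, Aimp2 and Eef1e1 differed by 0.00, 0.31 and 0.18, each ± 0.20, and none reached 1.5-fold.

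Of the 14 mitochondrial enzymes, 10 were above 0, with a median of 0.17, while the 18 cytosolic enzymes had 10 above 0 and a median of 0.05. The cytosolic median minus the mitochondrial median was -0.12. The ranges of the groups overlapped, at -0.78 to 0.54 for the cytosolic and -0.47 to 0.60 for the mitochondrial enzymes. The gap between the medians was smaller than the error of a single gene.

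Vars2, the mitochondrial valine enzyme, was the synthetase with the highest difference. It had levels of -2.12 with Pla2g4c siRNA and -2.72 with control siRNA, a difference of 0.60 ± 0.21, or 1.52-fold higher. It rested on 1 spot per array and lay just past the 1.5-fold line, and with normexp background correction it was 0.40. Cars2, the cysteine enzyme, was the next of the mitochondrial enzymes at 0.43 ± 0.20, also on 1 spot per array, with levels of 0.51 and 0.08. Fars2, for phenylalanine, had levels of -1.16 and -1.50 and differed by 0.34 ± 0.20, and Rars2, for arginine, had levels of 1.28 and 0.98 and differed by 0.30 ± 0.20.

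Yars2 and Hars2, the tyrosine and histidine enzymes, differed by 0.24 and 0.23. Sars2 and Aars2, for serine and alanine, differed by 0.17 and 0.15. Aars2 was dim, with levels of -4.16 with Pla2g4c siRNA and -4.30 with control siRNA, and differed by -0.15 with normexp background correction. Wars2, for tryptophan, had probes at -0.09 and 0.11, and Pars2, for proline, at -0.01 and 0.01.

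The mitochondrial enzymes below 0 were Ears2, Nars2, Tars2 and, by less than 0.01, Pars2. Ears2, the glutamate enzyme, differed by -0.47 ± 0.21 on 1 spot of 1 probe per array, with levels of -1.94 with Pla2g4c siRNA and -1.47 with control siRNA. A second Ears2 probe was well above background on the control array only, with dim levels of -6.19 with Pla2g4c siRNA and -5.38 with control siRNA. Its difference of -0.81 ± 0.41 was therefore not counted as measured. The third probe was not well above background on either array. Nars2, the asparagine enzyme, had levels of -3.39 and -3.02 and differed by -0.38 ± 0.21. Tars2, the threonine enzyme, differed by -0.24 and -0.18 in its probes.

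For 13 amino acids the cytosolic and the mitochondrial enzyme could be set side by side, with Eprs1 used for both glutamate and proline and the mean of Farsa and Farsb for phenylalanine. The cytosolic difference was the lower one in 6 pairs and the higher one in 7, and in 6 pairs the enzymes had opposite signs. The median gap was 0.05, above 0 where the gap between the group medians was below it, and it was -0.05 over all 14 pairs with the one not described here, so the pairs gave no common direction. Serine stood furthest apart in one direction, with Sars1 below Sars2 by a gap of -0.95 ± 0.29. Glutamate stood furthest apart in the other, with Eprs1 above Ears2 by 0.71 ± 0.29. Phenylalanine (-0.59 ± 0.29) and histidine (-0.52 ± 0.29) followed on the side of serine, and asparagine (0.51 ± 0.30) and tryptophan (0.48 ± 0.29) on that of glutamate. In 3 pairs the gap exceeded 2 of its errors, namely serine, phenylalanine and glutamate. For cysteine both enzymes were higher, Cars1 by 0.48 and Cars2 by 0.43.

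**Figure D2:**
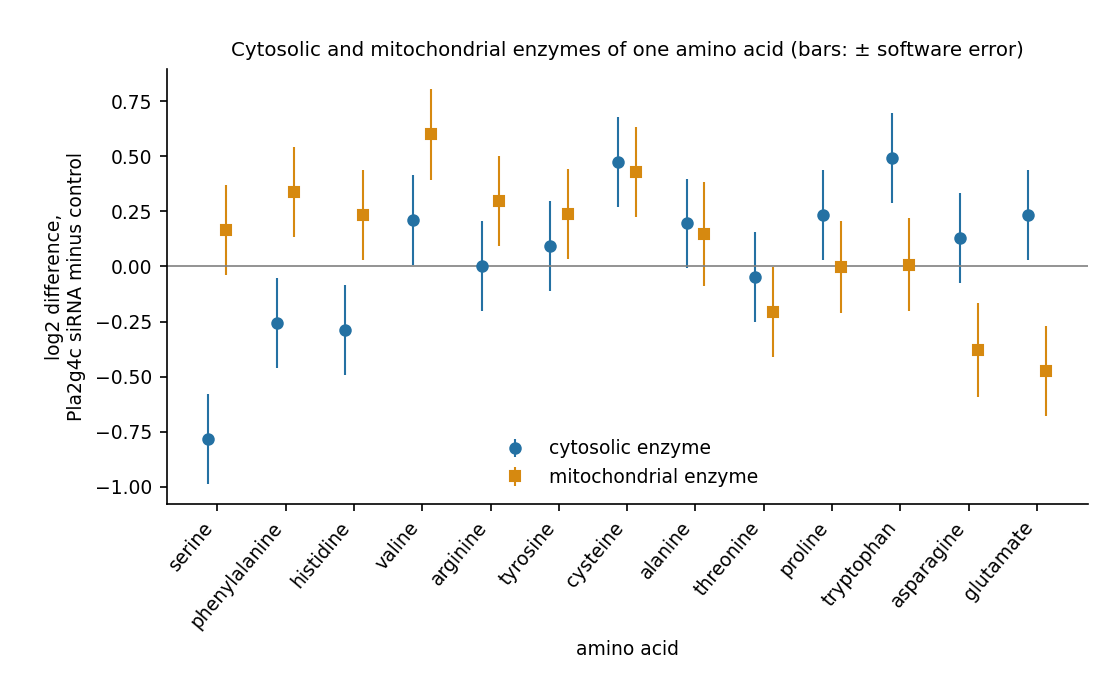
Difference of the cytosolic and the mitochondrial enzyme for each of 13 amino acids, in log2 units with the software error as bars, ordered by cytosolic minus mitochondrial. The pairs run from serine, with a gap of -0.95, to glutamate, with a gap of 0.71, with 6 pairs below 0 and 7 above.

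By structural class, 12 of the 15 class I enzymes measured were above 0, with a median of 0.24, and 7 of the 17 class II enzymes were, with a median of -0.05. Of the 12, Rars1 at 0.0003 and Wars2 at 0.01 were close to 0. Wars2 was below 0 with normexp, quantile and cyclic loess normalization. Eprs1 holds a domain of each class and was left out. Class I held Vars2, Iars1, Wars1, Cars1, Cars2 and Mars1, the synthetases with the highest differences, while of the 5 lowest, Sars1, Farsb and Nars2 were class II and Ears2 and Qars1 class I. The class I enzymes ranged from -0.47 to 0.60 and the class II enzymes from -0.78 to 0.34, so the classes overlapped. Within the cytosol the medians were 0.21 over 9 class I enzymes and -0.07 over 8 class II enzymes, and within the mitochondrion 0.27 over 6 and 0.16 over 8. The class I minus class II median was 0.28, and lay between 0.16 and 0.39 under the alternatives tried, while the class II median itself was 0.02 with quantile and 0.05 with cyclic loess normalization.

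The promoter windows of the synthetases were searched on both strands for TGATGNAA, the core of the element through which ATF4 acts, and for CACGTG, the E-box bound by the Myc family. Sequences are RefSeq's for the GRCr8 build, from 250 bases before the transcription start to 50 after it, and 30 of the 33 genes had one. TGATGNAA was found in 7 of the 30 windows, 23.3%, against 3.82% of 27457 rat promoter windows of the same length. The matches were in Aars1, Cars1, Iars1, Mars1, Nars1, Tars1 and Yars1, which are 7 of 16 cytosolic genes searched, while 0 of 13 mitochondrial genes had one. CACGTG was found in 6 windows, 20.0%, against 6.65%, in Aars1, Ears2, Farsb, Iars1, Tars1 and Vars1. In Iars1 the TGATGNAA match read TTGCATCA on the printed strand from position -24, in Mars1 from position -17 and in Cars1 from position 18, counting the first transcribed base as 1 and the base before it as -1. Aars1 had that match from position -112 and TTTCATCA from position 10.

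The windows of Iars1, Cars1 and Aars1 are shown because they hold the match and were above 0, and that of Sars1 because it had the lowest difference and holds neither motif. This choice used the values, and Tars1 (a match, -0.05) and Wars1 (no match, 0.49) are not shown. The windows shown run 5′ to 3′ on the gene's strand from 250 bases before to 30 after the start, with matches to either motif in capitals. Iars1 lies at chr17:15193623-15193902 (- strand), Cars1 at chr1:208225340-208225619 (- strand), Aars1 at chr19:55908232-55908511 (+ strand) and Sars1 at chr2:198769336-198769615 (- strand).
Iars1: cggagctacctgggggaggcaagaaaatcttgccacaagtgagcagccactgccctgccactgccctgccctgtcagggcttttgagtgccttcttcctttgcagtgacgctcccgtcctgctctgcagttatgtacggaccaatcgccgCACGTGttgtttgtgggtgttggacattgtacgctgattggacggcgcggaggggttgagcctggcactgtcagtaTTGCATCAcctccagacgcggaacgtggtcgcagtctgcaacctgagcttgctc
Cars1: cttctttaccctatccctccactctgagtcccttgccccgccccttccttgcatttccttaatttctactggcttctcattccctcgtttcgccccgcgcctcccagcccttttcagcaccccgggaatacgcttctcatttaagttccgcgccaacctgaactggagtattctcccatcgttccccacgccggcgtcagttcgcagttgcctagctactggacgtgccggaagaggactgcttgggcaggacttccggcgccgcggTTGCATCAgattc
Aars1: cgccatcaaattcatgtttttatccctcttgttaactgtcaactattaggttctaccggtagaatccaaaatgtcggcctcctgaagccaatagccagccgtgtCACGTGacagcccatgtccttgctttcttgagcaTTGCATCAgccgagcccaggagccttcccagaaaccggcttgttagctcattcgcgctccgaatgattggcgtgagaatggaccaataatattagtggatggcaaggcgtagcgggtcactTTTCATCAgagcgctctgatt
Sars1: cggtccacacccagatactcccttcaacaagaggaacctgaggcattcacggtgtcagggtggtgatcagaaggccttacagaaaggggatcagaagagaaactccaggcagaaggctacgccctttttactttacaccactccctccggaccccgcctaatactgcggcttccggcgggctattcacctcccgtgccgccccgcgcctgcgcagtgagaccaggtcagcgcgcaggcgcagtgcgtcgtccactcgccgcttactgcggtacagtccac

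The 7 cytosolic genes with a TGATGNAA match had a median difference of 0.20, with 6 above 0 and a range of -0.05 to 0.54. The 9 cytosolic genes searched without one had a median of -0.18, with 3 above 0 and a range of -0.78 to 0.49, so the groups overlapped. Among those without a match, Wars1, Eprs1 and Vars1 were above 0. The median with a match minus the median without was 0.37, a gap that median, spike-in and deposited scaling cannot change. It also stayed at 0.37 with the brightest probe, no filter on dim probes and outlier spots kept. It was 0.44 with normexp, 0.47 with quantile and 0.51 with cyclic loess normalization, and 0.45 with bright probes only. Genes with CACGTG went both ways, with Iars1 at 0.54, Vars1 at 0.21 and Aars1 at 0.20. Of the same genes Tars1 was at -0.05, Farsb at -0.45 and Ears2 at -0.47, and no split was made by this motif. The motifs were chosen after the values of the genes had been seen, and a match is a run of letters, not a shown binding site.

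**Figure D3:**
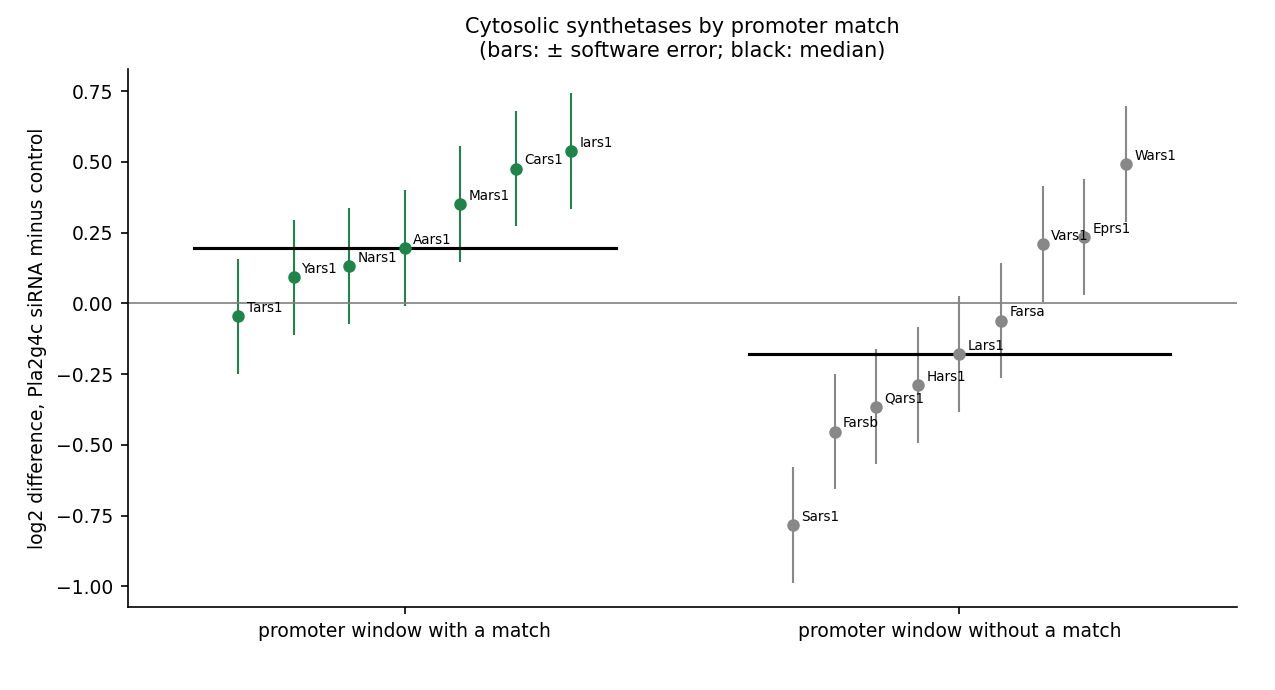
Difference of the 16 cytosolic synthetase genes with a promoter window, in log2 units with the software error as bars, split by whether the window holds TGATGNAA. The 7 genes with a match (median 0.20) and the 9 without (median -0.18) overlap, with Wars1 high among those without.

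Other genes that act on charged tRNA differed in several directions. Elongation factor 1 includes eEF1A (Eef1a1 or Eef1a2), which carries aminoacyl-tRNA to the ribosome. Eef1b2, Eef1d and Eef1g encode subunits of the exchange complex that reloads it with GTP. All were below 0, with a median of -0.60 over 5 genes and 3 at least 1.5-fold lower, against 10.3% of all genes. Eef1a1 had levels of 6.44 with Pla2g4c siRNA and 7.18 with control siRNA and differed by -0.74 ± 0.20, Eef1b2 by -0.62, Eef1g by -0.60, Eef1a2 by -0.43 and Eef1d by -0.42. Their median was -0.24 with cyclic loess, -0.04 with quantile normalization and -0.06 with spike-in scaling, and Eef1d was at 0.12 under quantile normalization and, like Eef1a2 at 0.11, above 0 under spike-in scaling. The synthetases were less bright, with a median level of 0.51 with Pla2g4c siRNA and 0.08 with control siRNA, and their median difference was 0.11 under quantile and cyclic loess normalization.

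The mitochondrial amidotransferase genes Qrsl1 and Gatc differed by 0.41 ± 0.21 and -0.29 ± 0.20. Their enzyme turns glutamate mischarged onto glutamine tRNA into glutamine, and Gatb, a further subunit, had no matched probe. Mtfmt, which formylates the mitochondrial initiator tRNA, differed by 0.32 ± 0.20. Among genes related to the synthetases, Prorsd1 had the lowest value, -0.70 ± 0.21, with levels of -2.20 and -1.51. Sephs2 and Sepsecs, of the selenocysteine pathway that Sars1 starts, differed by -0.35 and -0.20, each ± 0.20. The spots of Sepsecs overlapped between the arrays, and Pstk, of the same pathway, had no matched probe. Dtd2, on 1 spot per array, and Aarsd1, further genes related to the synthetases, differed by 0.09 and 0.08. In the list of tRNA processing and export 0 of 19 measured genes reached 1.5-fold in either direction, against 19.0% of all genes, the median was -0.00, and the extremes were Clp1, an RNA kinase, at 0.40 and Pop5, an RNase P subunit, at -0.45.

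Genes of the amino acid response had a median of 0.14 over 25 measured members, with 15 above 0, 3 past 1.5-fold on the higher side and 2 on the lower side. Over all genes 49.0% were above 0, and 8.69% and 10.3% were past 1.5-fold on those sides, so the counts past 1.5-fold were near those of all genes. The highest was Pycr1, an enzyme of proline synthesis, with levels of 2.37 with Pla2g4c siRNA and 1.19 with control siRNA and a difference of 1.18 ± 0.20. The lowest was Atf5, a transcription factor related to ATF4, with levels of 1.04 and 2.07 and a difference of -1.03 ± 0.20. The other members past 1.5-fold, named after their values were seen, were Slc7a11 (0.98), Trib3 (0.74) and Ddit4 (-0.73). Atf4 itself differed by 0.18 ± 0.20 and Asns, the asparagine synthetase of metabolism, by 0.22 ± 0.20, both given after their values were seen. Of the 25 members 10 were below 0, among them Psat1 (-0.16), Sesn2 (-0.15) and Ddit3 (-0.05), also named after their values were seen. With quantile and cyclic loess normalization Atf4 was at 0.50 and 0.44, and Asns at 0.31 and 0.36.

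**Figure D4:**
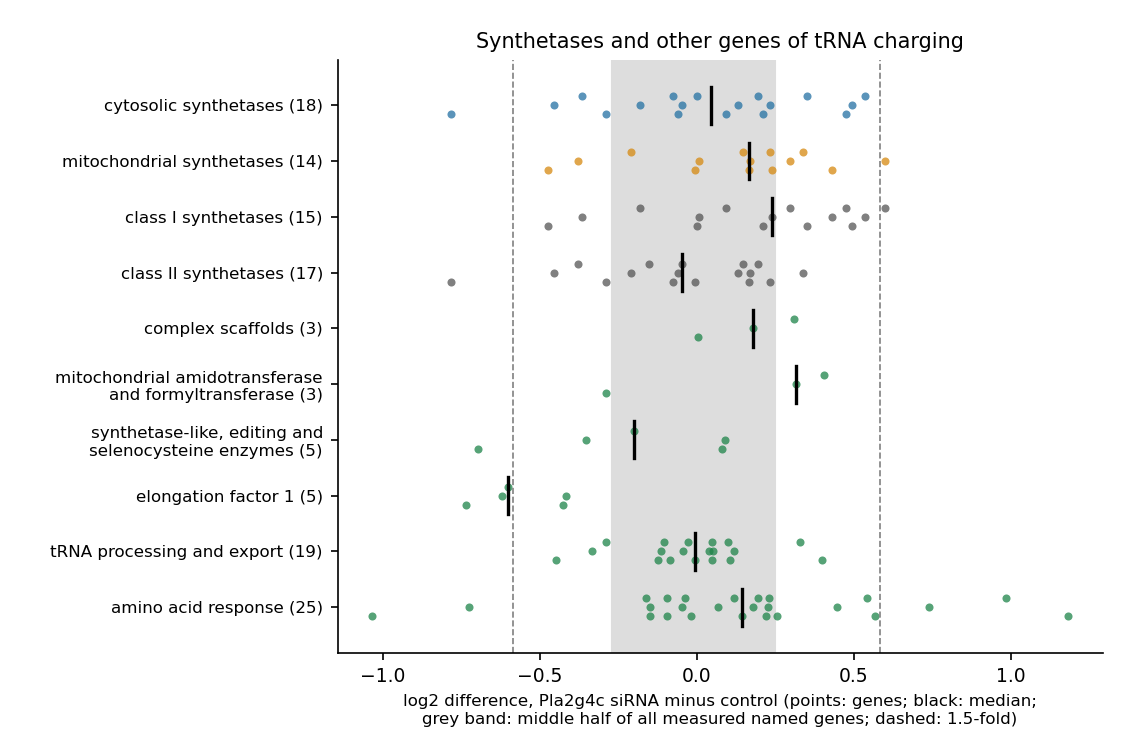
Differences of the synthetases by compartment and class and of the other lists of tRNA charging, in log2 units, with 1 point per gene, the number of genes in brackets, the median as a black line and the quartiles of all measured named genes as a grey band. The cytosolic and mitochondrial medians (0.05 and 0.17) lie inside the band and the elongation factor 1 median (-0.60) lies left of it.

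The direction of small differences rested on how the arrays were scaled to each other. Scaling to 7 spike-in RNAs moved the median of all genes to 0.53 and that of the synthetases to 0.67. Of the synthetases 32 of 33 were then above 0, all but Sars1, as were 88.3% of all genes. Past 1.5-fold there were 18 on the higher side, as were 44.3% of all genes, and 0 on the lower side, against 2.15%. In the authors' deposited values these medians were 0.12 and 0.26, and Cars1, Iars1, Vars2 and Wars1 were at least 1.5-fold higher, against 13.0% of all genes. Both scalings multiply each array by a constant, as median scaling does, so they shift all genes alike and cannot change the gap between groups of genes. Under the alternatives that can change it, the cytosolic minus mitochondrial median lay between -0.20 and -0.05.

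**Figure D5:**
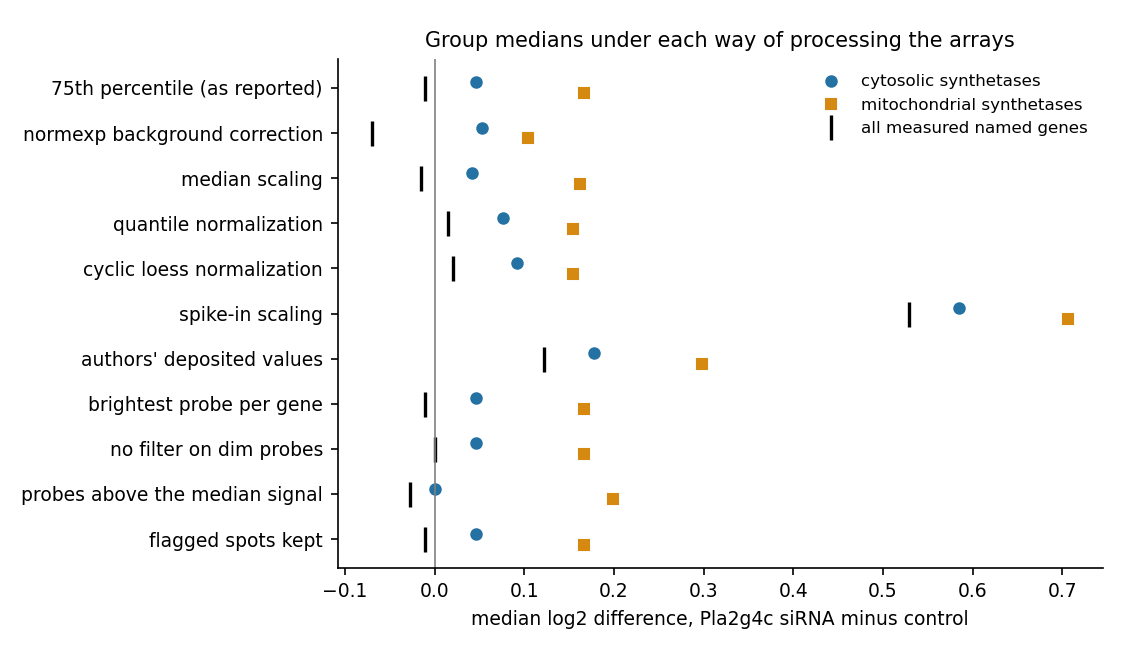
Median difference of the cytosolic and mitochondrial synthetases and of all measured named genes, in log2 units, under the 75th percentile scaling and 10 alternatives. Spike-in scaling shifts every median to the right, to 0.59, 0.71 and 0.53, a shift of all genes alike.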

How the data were processed

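Total RNA of RMT-1 cells was measured on 2 arrays, 1 per group. Per the file headers, the authors extracted spot intensities on a linear scale with Feature Extraction 10.10.1.1 (10.10 per the submitters' processing notes). The processed signal is background-subtracted within an array, and the deposited flags mark outlier and well-above-background spots. In a further deposited table of normalized intensities the processed signals are multiplied by 1 constant per array, 1.50 with Pla2g4c siRNA and 1.77 with control siRNA, by a method not given in the sources used here.

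Log2 processed signals were taken relative to the 75th percentile of all gene spots on that array. Spots flagged as outliers on one or both arrays were dropped and a probe's spots averaged. A probe counted as measured (16840 of 30367) if every spot was well above background with both siRNAs. Symbols came from the RefSeq accessions of the GRCr8 table, and a gene is the mean of its measured probes. The error is the software's signal error, combined for both arrays in log2 units (median 0.20 over the synthetases). No synthetase spot carried an outlier flag or was saturated. The number of arrays limits the precision, and no test was possible. The counts and medians hold all 33 measured synthetases. Of these 31 are described singly and 2 are not reported here, nor is their pair. Of the other lists the highest and lowest gene are named, or all where 5 or fewer were measured. The members and lists were chosen with earlier results of these data known. Alternatives were normexp on the median spot signal (offset 50), median, quantile, cyclic loess and spike-in scaling, the deposited values, the brightest probe, no filter on dim probes (values floored at the lowest signal well above background), bright probes only (above the median signal), keeping outlier spots, a 2-fold threshold, Kars1 counted with the cytosolic enzymes, and means. The promoter search and the alternatives for classes and other lists were chosen after seeing the data. The steps, tested on simulated data, ran in R 4.3.3 with limma 3.58.1 and in Python 3.11.15 with scipy 1.17.1, pandas 2.3.3, matplotlib 3.10.9 and numpy 2.4.6.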

Additional observations from a re-analysis of the deposited data

How the results depend on the processing

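A median was taken as unchanged where it moved by less than 0.20, the software error of a single synthetase, which is wide beside medians this small. Apart from spike-in scaling, all medians over the synthetases, the cytosolic, the mitochondrial and the complex enzymes moved by less than this, and the cytosolic minus mitochondrial median ran from -0.20 to -0.05, a gap that median, spike-in and deposited scaling cannot move. Spike-in scaling, which raises all genes alike, gave medians of 0.67 over all synthetases, 0.59 over the cytosolic, 0.71 over the mitochondrial and 0.50 over the complex enzymes. It put 18 synthetases at least 1.5-fold higher and 0 lower, against 44.3% and 2.15% of all genes. The count at least 1.5-fold higher was 0 with normexp, against 4.22% of all genes. It was 0 among probes above the median signal, which leave out Vars2, against 5.58%. In the authors' deposited values it was 4, against 13%. At 2-fold it was 0 in both directions. The immune marker Lyz2, at 0.60 and dim, was at -0.10 with normexp. Under quantile and cyclic loess normalization the 1 gene past 1.5-fold was Iars1 (0.59 and 0.63) in place of Vars2 (0.58 in both). Sars1 stayed past 1.5-fold lower under every alternative but spike-in scaling (-0.24) and the 2-fold threshold. Of single genes, Aars2 moved to -0.15 with normexp and Qars1 to -0.16 with cyclic loess. All 33 moved by more than their error under spike-in scaling. No synthetase past 1.5-fold changed sign under any alternative. No paired analysis was possible because each group had 1 array. Differences near 0.20 are within the software error, and dim genes such as Aars2 are limited by signal over background.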
